A study of Gallus gallus with 2 samples.

Results

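The regions described here are the CTCF peaks on chicken chromosome 4, taken from a map of CTCF binding in red blood cells labelled 10 day and 5 day old. They are all rows of both deposited peak lists whose sequence name was chromosome 4. That rule gave 2082 of the 27188 peaks in both lists together, with 1736 of 21358 at 10 days (8.13% of the list, exact 95% interval 7.76 to 8.50) and 346 of 5830 at 5 days (5.93%, 5.34 to 6.57). Peaks starting before 20 Mb were placed on the short arm side, and peaks starting at 20 Mb or later on the long side. The short arm side held 521 peaks at 10 days and 153 at 5 days, and the long side held 1215 and 193.

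Each age was 1 library of chromatin immunoprecipitated with a Millipore antibody against CTCF and sequenced on an Illumina Genome Analyzer. The 2 groups, 10 day and 5 day, shared the organism, cell type label and antibody, and no strain, treatment contrast or other genotype was given. The labels call the cells red blood cells, yet their growth and treatment fields describe mononuclear cells from a density gradient, stimulated with PMA and Io in culture. Whether days were counted before or after hatching, and how many animals made up a library, is not stated in the sources used here.

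The zinc finger protein CTCF marks insulators and, together with cohesin, anchors the bases of chromatin loops. Chicken chromosomes fall into a few long macrochromosomes and many short, gene-dense microchromosomes. Chromosome 4 is a macrochromosome whose short arm is held to be a former microchromosome that joined an ancestral chromosome, so both classes of sequence stand on it end to end. The comparison of the sides asks how CTCF peaks are distributed over such a chromosome, and the comparison of the ages asks where its peaks were listed at both.

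The dividing position fell in a stretch without peaks. At 10 days the last peak before it was at 19307196 to 19307594 (score 93, shared with the 5 day list) and the first after it at 20837862 to 20838260 (score 22, unmatched). At 5 days these were the peaks at 19307097 to 19307495 (score 16, shared) and 20810974 to 20811372 (score 13, unmatched). The starts on both sides of it lay 1530666 bp apart at 10 days and 1503877 bp apart at 5 days. No other distance between neighbouring peaks of chromosome 4 was longer at 10 days, while 14 were longer at 5 days. Any dividing position within that stretch gives the same members on each side. Genome build, sequence gaps and the place of the centromere are not given here by any label or header, so the label of a short arm rests on position alone.

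Peaks were denser on the short arm side at both ages, and in the full lists more so at 5 days. At 10 days the short arm side had 26.1 peaks per Mb and the long side 16.4, a density ratio of 1.59 (exact conditional 95% interval 1.43 to 1.76). At 5 days the short arm side had 7.65 peaks per Mb and the long side 2.60, a ratio of 2.94 (2.36 to 3.66). The short arm side, 20 Mb against 74.2 Mb up to the last peak end of the long side, thus held 30.0% of the chromosome's 10 day peaks and 44.2% of its 5 day peaks. The longer 10 day list was also cut by score to about the length of the 5 day list. Ties were kept, which left it somewhat longer. The 10 day ratio was then 2.09 (1.72 to 2.53), still below the 2.94 at 5 days. Their intervals overlapped, which does not show that the ratios were alike. The difference between the ages after this cut was not tested. With 1 library per age there is no spread between animals or preparations, so these intervals and all others here cover counting error within a library, no p-value is given, and peaks of 1 library are not replicates.

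The excess on the short arm side was greatest at its outer end. The 3 windows of 1 Mb that start the chromosome held 64, 46 and 23 peaks at 10 days and 19, 25 and 20 peaks at 5 days. Together these first 3 Mb had 44.3 peaks per Mb at 10 days, which was 1.94 times the rest of the short arm side (1.58 to 2.37). At 5 days they had 21.3 peaks per Mb, which was 4.07 times the rest (2.91 to 5.68). Without the first 3 Mb, a limit chosen after the values were seen, the short arm side still had 22.8 peaks per Mb at 10 days and 5.24 at 5 days. Its ratio to the long side was then 1.39 (1.24 to 1.56) at 10 days and 2.01 (1.55 to 2.60) at 5 days.

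**Figure D1:**
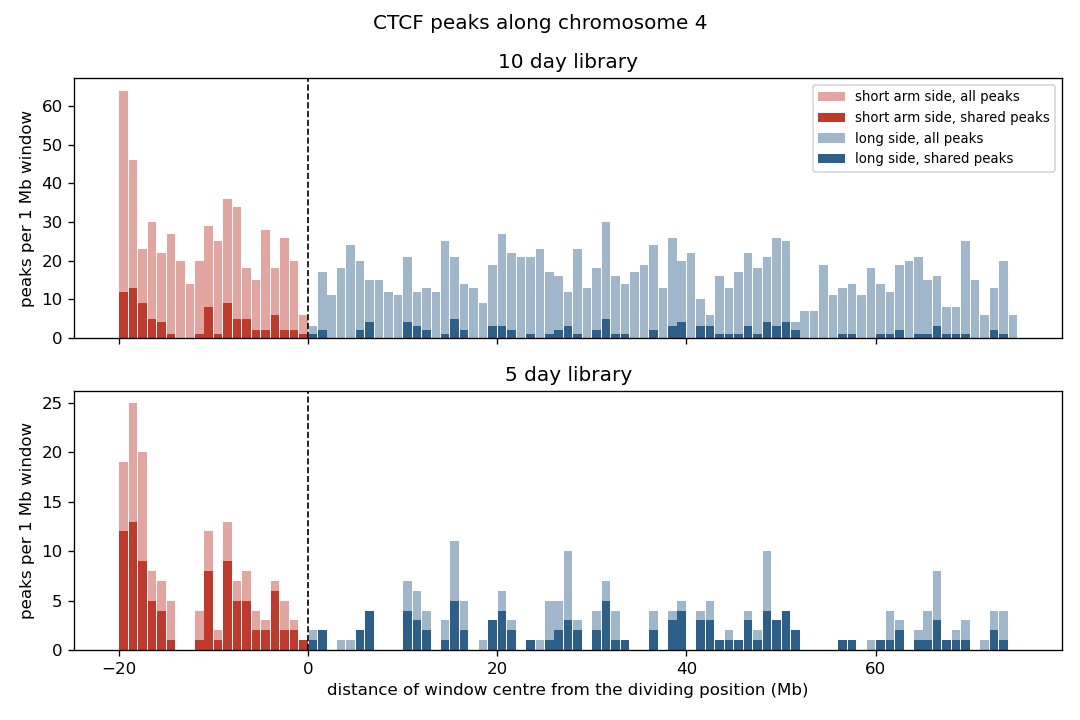
Peaks per 1 Mb window of chromosome 4 at 10 days (upper panel) and 5 days (lower panel), against the distance of the window centre from the dividing position in Mb; pale bars are all peaks and dark bars those overlapped by a peak of the other age, and the last window is not full. The tallest bars stand at the outer end of the short arm side, with 64 peaks at 10 days and 25 at 5 days.

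Windows of the 2 sides overlapped in their counts. On the short arm side 20 windows of 1 Mb held 6 to 64 peaks with a median of 24 at 10 days, and 74 full windows of the long side held 3 to 30 with a median of 16. In the 5 day list the short arm windows held 0 to 25 peaks (median 6) and the long side windows 0 to 11 (median 2). The count was above the long side's median in 17 of the 20 short arm windows at 10 days and in 16 at 5 days. No full window was empty at 10 days, whereas 2 on the short arm side (10.0%) and 19 on the long side (25.7%) were empty at 5 days. Over windows, the counts of the ages had a Spearman correlation of 0.64 on the short arm side (n = 20) and 0.29 on the long side (n = 74). It was 0.58 without the first 3 Mb (n = 17), and these windows share their libraries and any mappability of their sequence.

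After the outermost windows, the fullest short arm window at 10 days ran from 11000001 to 12000000 and held 36 peaks at 10 days and 13 at 5 days, 9 of them shared at each age. The emptiest were 19000001 to 20000000, with 6 and 1 peaks, then 7000001 to 8000000, with 14 and 0, and 14000001 to 15000000, with 15 and 4. The window from 6000001 to 7000000, with 20 peaks at 10 days, was also empty at 5 days. On the long side the fullest 10 day windows were 51000001 to 52000000 (30 peaks, and 7 at 5 days), 40000001 to 41000000 (27 and 6) and 58000001 to 59000000 (26 and 4). The fullest long side windows at 5 days were 35000001 to 36000000 (21 at 10 days and 11 at 5 days), 47000001 to 48000000, with 12 at 10 days and 10 at 5 days, and 68000001 to 69000000, with 21 and 10. By its 10 day counts the long side was sparsest at its start, with 3 peaks at 10 days and 2 at 5 days between 20000001 and 21000000. Next came 71000001 to 72000000, with 4 and 2 peaks, and 62000001 to 63000000, with 6 and 5. The earliest of the 19 windows of the long side that were empty at 5 days were 22000001 to 23000000, 27000001 to 28000000 and 28000001 to 29000000, with 11, 15 and 12 peaks at 10 days.

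Over stretches of 5 Mb the short arm side went from 37.0 peaks per Mb in its outermost stretch through 22.0 and 25.6 to 19.6 in the stretch next to the dividing position at 10 days. The 5 day densities of the same stretches were 15.8, 4.20, 6.80 and 3.80 per Mb. The 14 complete stretches of the long side ranged from 12.4 to 22.8 peaks per Mb at 10 days and from 0.60 to 4.60 at 5 days. At 10 days the densest of them, from 40000001 to 45000000, exceeded 2 of the 4 short arm stretches. The densest 5 day stretch, from 45000001 to 50000000, also exceeded 2 of the 4. The stretch from 75000001 to 80000000, with the lowest 5 day value, held 67 peaks at 10 days and 3 at 5 days.

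Set beside other chromosomes, the short arm side had 1.05 to 1.17 times the peak density of microchromosomes of like length, and without its first 3 Mb 0.721 to 1.02 times. Chromosomes 11, 12 and 13, between 18.9 and 21.9 Mb long up to their last peaks, had 22.4 peaks per Mb together at 10 days and 7.27 at 5 days. The short arm side was at 1.17 times this density at 10 days (1.05 to 1.29) and at 1.05 times at 5 days (0.870 to 1.27), an interval that includes 1. Against all chromosomes from 11 upwards, which include much shorter ones, it was at 0.922 times at 10 days (0.841 to 1.01) and at 0.725 times at 5 days (0.611 to 0.855). Chromosomes 11 to 13 were kept whole when the first 3 Mb of the short arm side were left out. The ratio to them was then 1.02 at 10 days (0.910 to 1.14) and 0.721 at 5 days (0.567 to 0.907). Ends of the other chromosomes were not examined, so a part without its dense outer end stands beside whole chromosomes.

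The long side was sparser than chromosomes 3 and 5 and close in density to chromosome 2. By the point values it was less dense at both ages than each of 26 other autosomes of at least 1 Mb. Chromosomes 3 and 5, of 113.6 and 62.2 Mb, had 18.8 peaks per Mb at 10 days and 3.91 at 5 days. The long side was at 0.871 times this density at 10 days (0.815 to 0.931) and at 0.665 times at 5 days (0.564 to 0.781). Against chromosome 2 alone, chosen after the values were seen, its ratio was 0.979 at 10 days (0.914 to 1.05) and 0.956 at 5 days (0.802 to 1.14), so that difference was within counting error. Chromosomes 1 and 2 had 16.8 and 16.7 peaks per Mb at 10 days, and 3.26 and 2.72 at 5 days. The short arm side stood in the middle of the same 26 autosomes, with 13 denser at 10 days and 15 denser at 5 days.

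**Figure D2:**
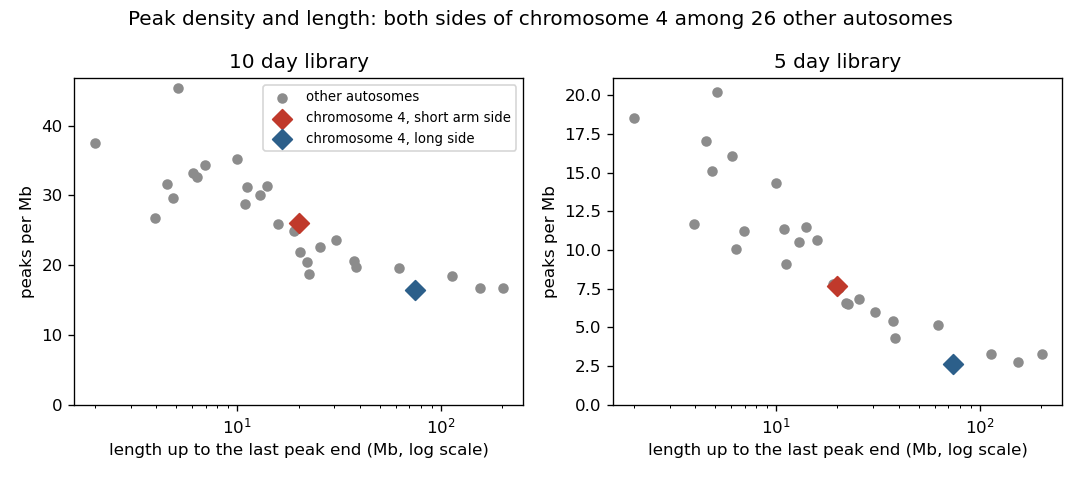
Peaks per Mb against length up to the last peak end (Mb, log scale) at 10 days (left) and 5 days (right); grey points are 26 other autosomes and diamonds the sides of chromosome 4. At 10 days the short arm side, at 26.1 per Mb, lies above chromosomes 11 to 13 (20.5 to 25.0). At 5 days, at 7.65 per Mb, it lies among them (6.57 to 7.77). The long side, at 16.4 and 2.60 per Mb, lies below every grey point.

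The surplus of 10 day peaks varied along the chromosome. On the short arm side the 10 day list outnumbered the 5 day list by a factor of 3.41 (2.84 to 4.10), and on the long side by a factor of 6.30 (5.40 to 7.37). The factor over the whole lists was 3.66 (3.56 to 3.77), within the interval of the short arm side and below that of the long side. The factor on the short arm side was 0.541 times that on the long side (exact conditional interval 0.425 to 0.690). This restates the difference between the density ratios of the ages, 1.59 at 10 days and 2.94 at 5 days. With the 10 day list cut by score to about the 5 day length, the 10 day density ratio was 2.09. Without the first 3 Mb the short arm factor was 4.36 (3.45 to 5.55), or 0.693 times that of the long side (0.522 to 0.924). In the first 3 Mb the 10 day list had 2.08 times as many peaks (1.53 to 2.85). The short arm factor was 1.11 times that of chromosomes 11 to 13 (0.894 to 1.37), and the long side factor 1.31 times that of chromosomes 3 and 5 (1.10 to 1.57). Chromosome 2, set beside it after the values were seen, had a factor of 6.14 (5.54 to 6.83), and the long side factor was 1.02 times this (0.850 to 1.24). Read depth is unknown for both libraries, and the part of it in these factors was not tested.

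Peaks that met a peak of the other age over 1 bp or more are called shared, and the rest unmatched. Over the whole lists 15.8% of 10 day peaks and 57.6% of 5 day peaks were shared. On the short arm side 88 of 521 peaks were shared at 10 days (16.9%, exact 95% interval 13.8 to 20.4), near the share of the whole list. On the long side 103 of 1215 were shared at 10 days (8.48%, 6.97 to 10.2), below it. The sides differed by 8.41 percentage points at 10 days (short arm minus long side, Newcombe 95% interval 4.99 to 12.2). Without the first 3 Mb the difference was 5.44 points (1.91 to 9.50). With the 10 day list cut by score to about the length of the 5 day list, ties kept, it was 16.3 points (7.24 to 25.2). The shares were then 45.0% on the short arm side and 28.7% on the long side. At 5 days 88 of 153 peaks were shared on the short arm side (57.5%, 49.3 to 65.5) and 105 of 193 on the long side (54.4%, 47.1 to 61.6). That difference of 3.11 points had an interval of -7.38 to 13.4, so that a difference of several points in either direction was not detectable at this number of peaks. Shared peaks paired almost 1 to 1, so the 10 day shared percentage of a side follows from its 5 day percentage and its age factor. With 5 day shares of 57.5% and 54.4%, the 10 day difference largely restates the age factors of 3.41 and 6.30. It is not a separate result. The long side also had the lowest 10 day shared percentage beside all 26 other autosomes, a value that depends on the age factor in the same way. The difference from chromosomes 3 and 5 was -3.63 points (-5.48 to -1.62), and that from chromosome 2 was -0.838 points (-2.70 to 1.17).

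Shared peaks are nearly the same positions in both lists, so their density ratio of short arm over long side was alike by construction, at 3.17 over 10 day positions (2.36 to 4.26) and 3.11 over 5 day positions (2.32 to 4.17). The unmatched peaks were distributed differently. At 10 days they stood at 21.7 per Mb on the short arm side and 15 on the long side, a ratio of 1.45 (1.29 to 1.62). At 5 days they stood at 3.25 and 1.19 per Mb, a ratio of 2.74 (1.96 to 3.82). The short arm side had 6.66 times as many unmatched peaks at 10 days as at 5 days (5.12 to 8.78), and the long side 12.6 times (10.2 to 15.9). The first of these factors was 0.527 times the second (0.371 to 0.753). For all peaks the like value was 0.541, and the value for unmatched peaks largely restates it.

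Where a site was shared, the ages placed it at nearly the same position on both sides. Among 88 pairs on the short arm side in which each peak was the nearest to the other, the median offset between starts was 43 bp (interquartile range 24 to 72.5), and 1 pair had none. Among 103 such pairs on the long side the median was 36 bp (18 to 66). Every peak was 399 bp wide, so starts of overlapping peaks cannot lie further apart than that. On the long side 2 peaks of the 10 day list each overlapped more than 1 peak of the 5 day list, and none did so on the short arm side. Scores of paired peaks had a Spearman correlation of 0.56 on the short arm side and 0.60 on the long side, as a description over pairs that share their libraries.

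The authors' score, a whole number for each peak with no stated scale, was used as a rank within its own list. Percentiles have 100 for the highest, and equal scores were given their middle rank. Ranks printed for single peaks count down from the highest score, and there equal scores have the best of their ranks. By median rank the sides were level at 10 days, at the 51.0 percentile on both sides. That is the middle rank of the tied score of 25, which was also the median of most other autosomes, so it separates little. The 10 day interquartile range was 27.0 to 74.6 on the short arm side and 27.0 to 65.5 on the long side. The 5 day median was at the 53.6 percentile on the short arm side (interquartile range 22.6 to 76.4) and at the 49.1 percentile on the long side (28.6 to 74.2). The sides differed at the top of the 10 day list. Of all 10 day peaks 20.8% fell in the highest scoring of 5 parts of the list, and of all 5 day peaks 20.3%. Part 5 began at a score of 31 at 10 days and at 43 at 5 days, and ties make the parts unequal. The lowest score was 22 in the 10 day list and 13 in the 5 day list. Parts 1 and 2 of the 10 day list were the single scores 22 and 23. Of the 1736 peaks of chromosome 4 at 10 days, 364 had the lowest score. At 10 days part 5 took in 118 peaks of the short arm side (22.6%, 19.1 to 26.5) and 169 of the long side (13.9%, 12 to 16), a difference of 8.74 points (4.78 to 12.9). At 5 days part 5 took in 32 peaks of the short arm side (20.9%, 14.8 to 28.2) and 35 of the long side (18.1%, 13 to 24.3), a difference of 2.78 points (-5.52 to 11.4). The long side had the lowest such percentage at 10 days beside all 26 other autosomes, and at 5 days 5 of the 26 were lower. Its 10 day difference from chromosome 2 was within counting error, at -0.663 points (-2.98 to 1.78).

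At 10 days the density ratio of the sides was therefore higher in part 5 than in the rest of the list. In part 5 it was 2.59 (2.03 to 3.30), and in parts 1 to 4 it lay between 1.38 and 1.53. The intervals of those 4 parts reached at most 2.00, below that of part 5. The 5 day ratio lay between 2.21 and 3.53 in all 5 parts, with intervals that overlapped one another. In part 5 the ratio was 3.39 at 5 days (2.03 to 5.64), above that of part 5 at 10 days. These 2 intervals overlapped, and the difference between the ages in part 5 was not tested.

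**Figure D3:**
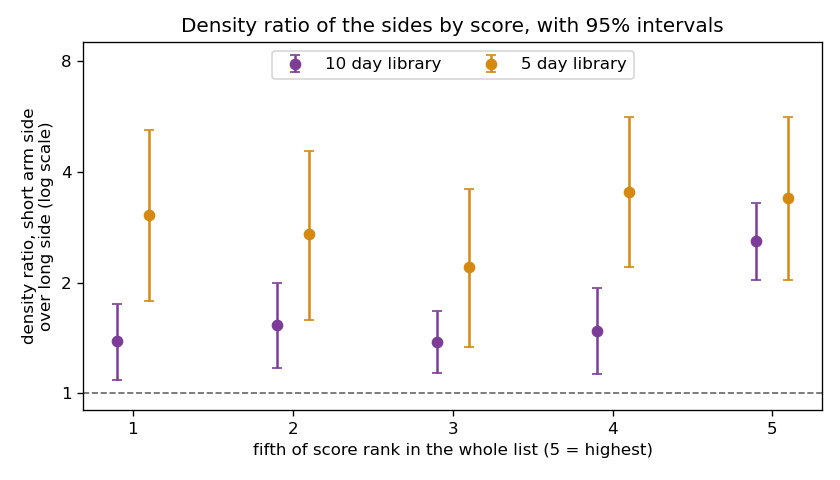
Density ratio of the short arm side over the long side (log scale) in 5 parts of each list by score rank, with exact conditional 95% intervals; purple points are 10 day peaks and orange points 5 day peaks. At 10 days part 5 stands at 2.59 and the other parts between 1.38 and 1.53.

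Recovery in the other list went with score on both sides. In part 5 of the 10 day list 67 of 118 short arm peaks (56.8%, 47.3 to 65.9) and 76 of 169 long side peaks (45.0%, 37.3 to 52.8) were shared, a difference of 11.8 points whose interval ended just above zero (0.0658 to 23.1). Without the first 3 Mb that difference was 5.68 points (-7.59 to 18.8). In part 4 the shares were 16.5% on the short arm side and 7.58% on the long side (difference 8.88 points, 0.883 to 19). In parts 1 to 3 they were at most 3.03% on either side. Over the whole 10 day list the shares were 55.2% in part 5, 10.9% in part 4 and 2.84% to 5.29% in parts 1 to 3. Part 5 is broad, and its short arm peaks had a higher median score (38.5) than its long side peaks (35). Among its peaks with scores of 31 to 49, 25 of 76 short arm peaks (32.9%) and 35 of 126 long side peaks (27.8%) were shared, a difference of 5.12 points (-7.57 to 18.3). Of all 10 day peaks with these scores 35.1% were shared. In part 5 of the 5 day list 31 of 32 short arm peaks (96.9%, 83.8 to 99.9) and 31 of 35 long side peaks (88.6%, 73.3 to 96.8) were shared, and in part 1 the shares were 17.9% and 20.6%. The whole 5 day list had 92.8% shared in part 5 and 23.0% in part 1. The intervals of the difference between the sides included zero in all 5 parts at 5 days.

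**Figure D4:**
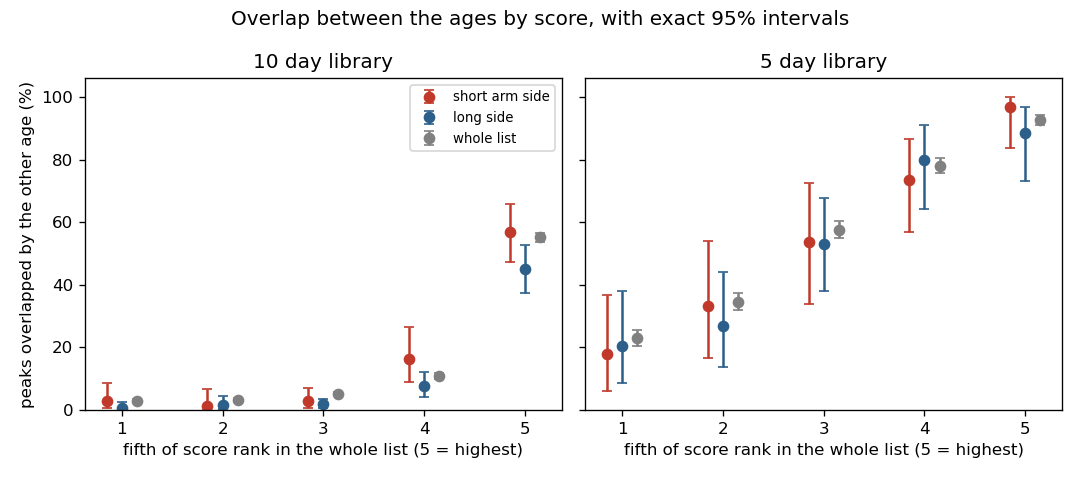
Percentage of peaks overlapped by a peak of the other age in 5 parts of each list by score rank, at 10 days (left) and 5 days (right), with exact 95% intervals; red points are the short arm side, blue points the long side and grey points the whole list. In part 5 at 10 days the short arm side is at 56.8% and the long side at 45.0%, and at 5 days they are at 96.9% and 88.6%.

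The strongest single site of the chromosome at both ages lay on the long side. It was at 25989932 to 25990330 in the 10 day list, with a score of 441 (rank 47 of 21358), and at 25989957 to 25990355 in the 5 day list, with a score of 268 (rank 14 of 5830). A second shared peak stood beside it at 25990906 to 25991304, with a score of 193 at 10 days and of 36 at 5 days. No other long side peak was near the first in score. At 10 days the next were at 51972126 to 51972524 (score 134, and 61 at 5 days), 69512133 to 69512531 (130, and 61) and 40470155 to 40470553 (117). The last of these met 2 peaks of the 5 day list, the stronger with a score of 45. The next long side peaks of the 5 day list were at 61371267 to 61371665 (score 42 at 10 days and 80 at 5 days), 40975944 to 40976342 (102 and 75), 51711002 to 51711400 (32 and 72) and 68375117 to 68375515 (76 and 69).

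On the short arm side the highest scores of the ages stood at different sites. The highest 10 day peak, at 3650 to 4048 near the first base of the chromosome, scored 144 (rank 168), while the 5 day peak with the same start scored 16 (rank 4017). At the highest 5 day peak, at 30152 to 30550, the 10 day score was 109 (rank 299) and the 5 day score 164 (rank 43). The other leading sites were strong in both lists. The site at 9462116 to 9462514 scored 138 at 10 days (rank 187) and 117 at 5 days (rank 80). The site at 1807760 to 1808158 scored 120 and 104, that at 314425 to 314823 scored 113 and 85, and that at 15797920 to 15798318 scored 134 and 75. At a further 5 day peak, at 9617477 to 9617875, the 10 day score was 73 and the 5 day score 95. No common scale links the scores of the lists, so only ranks bear comparison.

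Peaks without a counterpart were common in part 5 of the 10 day list and few at its very top. Unmatched were 51 of the 118 short arm peaks of part 5 at 10 days (43.2%) and 93 of its 169 long side peaks (55.0%), against 1 of 32 and 4 of 35 at 5 days. Over the whole lists 55.2% of part 5 was shared at 10 days and 92.8% at 5 days, so the short arm side stood near the list at 10 days. A score of at least 50, a limit chosen after the values were seen, took in 1481 of 21358 peaks at 10 days and 856 of 5830 at 5 days. These are unlike parts of the lists by rank, so the ages cannot be compared at this limit. Among such peaks 4.73% were unmatched over the whole 10 day list and 4.91% over the whole 5 day list. On the short arm side it was 0 of 42 at 10 days and 1 of 25 at 5 days, and on the long side 2 of 43 and 0 of 17, numbers too small to set apart from the whole lists. The long side pair at 10 days was at 45503157 to 45503555 (score 90) and 63288883 to 63289281 (score 62), each with a 5 day peak starting close by, 466 and 599 bp away. The 5 day peak was at 1436730 to 1437128 (score 64), with the nearest 10 day start 4046 bp away. Next among unmatched 10 day peaks of the long side, those at 57799141 to 57799539 (score 48), 58020637 to 58021035 (46) and 63503584 to 63503982 (44) had no 5 day start within 866285, 644789 and 215300 bp.

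On the short arm side the highest unmatched 10 day peak was at 15538146 to 15538544 (score 48), with the nearest 5 day start 130288 bp away. It was followed by the peaks at 462143 to 462541 and 666545 to 666943 (score 43 each), 11308448 to 11308846 (40) and 495159 to 495557 (39). After the first, the unmatched 5 day peaks of the short arm side scored at most 39, led by 1836218 to 1836616 and 5175105 to 5175503 (39 each), then 15700943 to 15701341 (38) and 2135523 to 2135921 (36). Those of the long side were led by 85805070 to 85805468 (score 47), 67702814 to 67703212 (45), 86104096 to 86104494 (44), 35370953 to 35371351 (43) and 36624946 to 36625344 (37). A near miss of the overlap rule was rare at 10 days, where 8 of 433 unmatched short arm peaks and 8 of 1112 unmatched long side peaks had a 5 day peak starting within 1 kb. At 5 days it was 8 of 65 and 7 of 88, where the other list is denser.

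Spacing followed density, with one exception at the shortest distances. The median distance between neighbouring starts at 10 days was 22710 bp on the short arm side (interquartile range 9306 to 46706) and 39644 bp on the long side (15082 to 82951). At 5 days the medians were 49568 bp on the short arm side (23426 to 123293) and 136038 bp on the long side (33352 to 394529). Distances under 10 kb made up 26.7% on the short arm side and 16.5% on the long side at 10 days (difference 10.3 points, 6.02 to 14.7), and 12.5% and 9.38% at 5 days (difference 3.13 points, -3.47 to 10.2). The 10 day difference was 6.26 points without the first 3 Mb (1.79 to 11.1). In the upper 50% of the scores, ties at the median kept, it was 3.90 points, with an interval that included zero (-0.331 to 8.76). Distances under 1 kb went the other way. At 10 days 5 of 520 on the short arm side were so short (0.962%) and 32 of 1214 on the long side (2.64%), a difference of -1.67 points (-2.87 to -0.194). At 5 days it was 2 of 152 (1.32%) and 8 of 192 (4.17%), with a difference of -2.85 points (-6.81 to 1.08). These counts are small, and all intervals for distances treat them as independent, which neighbouring peaks are not. They are a description only. Shares of distances on other chromosomes are not given here, so neither side can be called unusual in its spacing.

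Relative to the mean, the median distance was longer at 10 days than at 5 days on both sides. The median distance was 0.612 of the mean on the short arm side and 0.656 on the long side at 10 days, and 0.390 and 0.359 at 5 days. Without the first 3 Mb the short arm values were 0.644 at 10 days and 0.513 at 5 days.

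**Figure D5:**
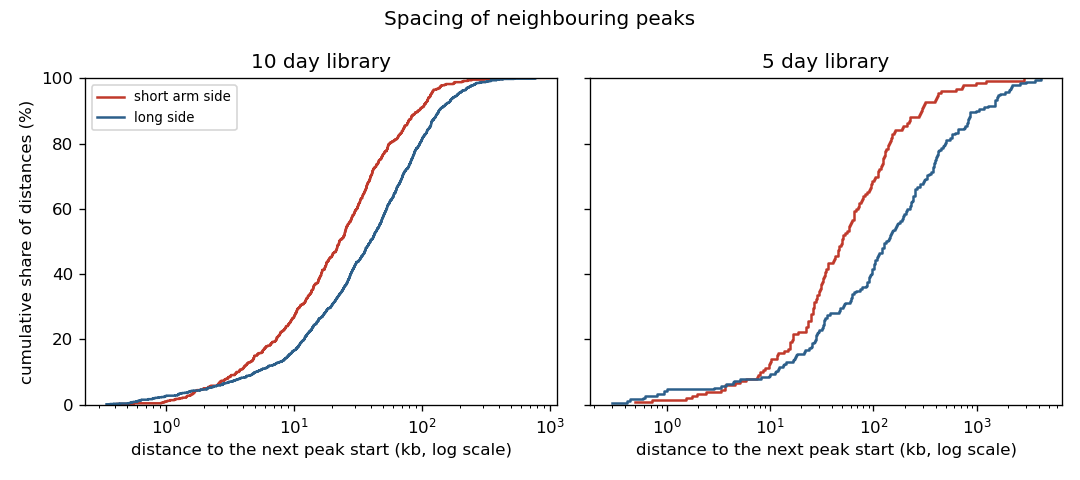
Cumulative share of distances between neighbouring peak starts (kb, log scale) at 10 days (left) and 5 days (right); the red line is the short arm side and the blue line the long side. The red line lies left of the blue one over most of the range, with medians of 22710 and 39644 bp at 10 days and 49568 and 136038 bp at 5 days, and the lines cross at the shortest distances.

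Long stretches without a 5 day peak held 10 day peaks with scores near the median of 25 of their list. The longest on the short arm side ran from the start at 5228968 to that at 8057503, 2828535 bp, and contained 57 peaks of the 10 day list of median score 24 and scores up to 36. The next, from 14433641 to 15668434 and from 9682512 to 10669095, held 20 and 18 peaks of the 10 day list, with scores up to 48 and 34. On the long side the longest ran from 71893770 to 76012779, 4119009 bp, with 44 peaks of the 10 day list between, and scores of at most 36. Those from 26643250 to 30308615 and from 53314692 to 56267806 each held 53 peaks of the 10 day list, with scores up to 35 and 39. Stretches without a 10 day peak were shorter. The longest within a side were 428334 bp on the short arm side (from 16182495 to 16610829) and 773875 bp on the long side (from 61990621 to 62764496), each with 1 peak of the 5 day list between, of score 15 and 18. Both scores fall in part 2 of the 5 day list, which runs from 15 to 18. The next were 305777 bp (from 2527975) and 245115 bp (from 15191718) on the short arm side, and 525721 bp (from 38492972) and 430315 bp (from 70993381) on the long side. Whether these stretches hold sequence that reads can be mapped to was not tested.

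Small groups of 10 day peaks stood on the short arm side where the 5 day list had almost none. Its 3 fullest windows of 100 kb at 10 days were 900001 to 1000000 (12 peaks, and 1 at 5 days), 12500001 to 12600000 (11, and 0 at 5 days) and 5300001 to 5400000 (10, and 0 at 5 days). None of these 33 peaks was shared, none scored above 32, and they made up 6.33% of the 10 day peaks of the short arm side. Most 10 day peaks were unmatched, as only 16.9% were shared on the short arm side and 15.8% over the whole list. The unmatched 10 day peaks of the short arm side had a median score of 24. On the long side the fullest window, from 40400001 to 40500000, held 8 peaks at 10 days and 2 at 5 days, with a highest score of 117 at 10 days. The windows from 26800001 to 26900000 and 43300001 to 43400000 followed, among 8 with 6 peaks each at 10 days, and both had 0 at 5 days.

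The fullest small windows of the short arm side at 5 days lay near its outer end. Between 1400001 and 1500000 there were 5 peaks at 10 days and 6 at 5 days, with 4 shared at each age, and that from 1900001 to 2000000 held 5 and 6, with 1 shared. Between 2200001 and 2300000 the lists had 3 peaks at 10 days and 5 at 5 days, with 2 shared. On the long side the fullest 5 day windows were 31700001 to 31800000, with 4 peaks at each age and 3 shared, 45500001 to 45600000, with 3 and 4 peaks, and 35700001 to 35800000, with 2 and 3. The last was 1 of 10 windows of the long side with 3 peaks at 5 days.

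In the first 3 Mb of the chromosome themselves, a limit chosen after the values were seen, 34 peaks were shared at each age. These were 25.6% of its 133 peaks at 10 days (18.4 to 33.8) and 53.1% of its 64 peaks at 5 days (40.2 to 65.7). Over the whole lists 15.8% and 57.6% were shared. Part 5 of the score took in 30.8% of the peaks of these 3 Mb at 10 days (23.1 to 39.4) and 25.0% at 5 days (15.0 to 37.4). Over the whole lists it took in 20.8% and 20.3%. Both 5 day intervals include the value of the whole list. Shared peaks of the first 3 Mb had a median score of 58 at 10 days and 41 at 5 days, and the unmatched peaks there one of 24 and 16. Which genes lie at these peaks, and whether they hold a CTCF motif, was not analysed here.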

How the data were processed

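Each library came as 1 peak list with 6 columns and no header. The score of each peak was deposited by the authors as a whole number, with no stated scale. The sources used here name neither genome build nor aligner, peak caller, threshold or input library. Positions are printed with the first base counted as 1. Groups were taken from the age label. The members and the list of comparisons were chosen with earlier results of these data known. Density is peaks per Mb, over 0 to 20 Mb and from 20 Mb to the last peak end of either list. Shares have exact Clopper-Pearson 95% intervals, differences of shares Newcombe 95% intervals, and ratios exact conditional binomial 95% intervals. Score parts were cut at ranks within the whole list, ties at their middle rank. Read totals, and so depth, are unknown. Functions were tested on simulated data. Peaks were named by a rule: per side and age the 5 highest shared and 5 highest unmatched, the 3 fullest windows of 100 kb, the 3 fullest and emptiest of 1 Mb (ties by start), the 3 longest distances, and the peaks next to 20 Mb. No genome of the files' build was used here, so no sequence is shown. Alternatives changed the dividing position, score limit, 10 day list length, overlap rule, merging, length and ranking. Computations ran in scipy 1.17.1, pandas 2.3.3 and numpy 2.4.6 under Python 3.11.15, and figures in matplotlib 3.10.9.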

Additional observations from a re-analysis of the deposited data

Results flagged for a closer look

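The 10 day over 5 day factor in peak number differed between the sides of chromosome 4: that of the short arm side was 0.541 times that of the long side, by an exact conditional interval of 0.425 to 0.690 that treats peaks as independent, over 1 library per age. The full lists differ in length. With the 10 day list cut by score to about the 5 day length, the 10 day density ratio of the sides was 2.09, against 1.59 uncut and 2.94 at 5 days. The random sequence assigned to chromosome 4 was counted in the whole lists but on neither side. It held 14 peaks at 10 days and 7 at 5 days. Its length was not used here, so these counts give no density. At each age 6 of the peaks were shared, and the highest scores were 113 at 10 days and 63 at 5 days. Over the whole lists 15.8% of 10 day peaks and 57.6% of 5 day peaks were shared. The peaks on the random sequence are too few to set apart from these shares, and no interval was computed for them.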

How the results depend on the processing

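Of 113 values under alternatives, 96 stayed within the 95% interval of the reported value, 17 moved outside it and 0 changed direction where the interval had excluded no difference. This count does not measure how firm the results are. Some values could not change, such as the 5 day density ratio of the sides when only the 10 day list was cut. A value that stayed could also have an interval of its own that includes no difference. Dividing positions of 19 and 21 Mb, an overlap of 50% of both peaks, peaks widened by 500 bp, merging within 1 kb, lengths between first and last peak and ranks without unplaced sequence moved none outside it. Some of their intervals still crossed no difference. With widened peaks the 10 day difference in shared percentage in part 5 was 11.5 points (-0.267 to 22.7), against 11.8 (0.0658 to 23.1). With the divide at 21 Mb the 10 day short arm density was 0.883 times that of chromosomes 11 upwards (0.806 to 0.967), against 0.922 (0.841 to 1.01). The 10 day list was cut by score to about the length of the 5 day list, with ties kept, which left it somewhat longer. The 10 day density ratio of the sides was then 2.09. The 10 day shared percentages were 45.0 on the short arm side and 28.7 on the long side (difference 16.3), and the 5 day one of the long side 45.6. The upper 50% of the scores, ties at the median kept, was also taken from both lists, and overlap was counted between these parts. The shared percentages were then 23.7 and 12.5 at 10 days and 76.7 and 77.8 at 5 days. The difference in distances under 10 kb at 10 days was 3.90 points (-0.331 to 8.76). Without the first 3 Mb, chosen after seeing the data, the density ratios of the sides were 1.39 at 10 days and 2.01 at 5 days, the short arm age factor was 4.36, and the short arm density was 1.02 and 0.721 times that of chromosomes 11 to 13 and 0.808 and 0.496 times that of chromosomes 11 upwards. The other chromosomes were kept whole in these ratios. The cause was not tested. No paired analysis was possible because there was a single library at each age, which also left none to omit. Without read depth, absence of a peak from a list does not show that the site was unbound.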
